A study of Danio rerio with 16 samples.

Results

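The genes described here encode 10 nucleolar proteins that build ribosomes: nop56, fbl, nopchap1, dkc1, emg1, aatf, heatr1, gnl2, gnl3l and gtpbp4. They were taken by gene symbol from a zebrafish liver RNA-seq table of 35855 genes and followed across all 16 libraries. The 10 were chosen with earlier results of these data known. The study had listed emg1 and dkc1 among the genes raised on the obesity diet in HBx,Src(p53-), by microarray as well as by RNA-seq. It also named nop56, dkc1 and emg1 among ribosome biogenesis genes lowered or nonsignificant in WT and HBx(p53-) but raised in HBx,Src(p53-). Shares of all genes set beside counts of members are therefore descriptions and no independent background. Each of the 10 had 1 row, carrying 1 RefSeq transcript name, and nop56 and aatf have 2 curated RefSeq transcripts of which 1 was named. Levels are in FPKM, the fragments mapped per kilobase of transcript, scaled to the mapped fragments of the library. All 10 averaged at least 1 FPKM over the libraries, as did 12319 genes in all, and every test was run on these. Because FPKM is a level per length, levels can be set side by side between genes.

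Ribosomes are made in the nucleolus, where RNA polymerase I transcribes the rRNA precursor. Box C/D particles, which contain fibrillarin and NOP56, guide methylation of the rRNA, and box H/ACA particles, which contain dyskerin, guide its conversion of uridine to pseudouridine. A large complex called the small subunit processome folds and cuts the precursor, and a series of GTPases drives the maturation of the large subunit. Most of these roles were worked out in yeast and human cells. The pathway is known for its dependence on nutrients and growth signals and for its high activity in dividing cells.

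Libraries were made from livers of fish that were 3 months old at the start and were fed for 8 weeks on 1 of 3 diets. NOR fish received 0.5 mL of Artemia once daily, DIO fish 2 mL of Artemia 3 times daily, and FAT fish the NOR ration with about 0.22 g of high-fat food 3 times daily. WT fish were of the AB strain. HBx(p53-) fish carried HBx (a hepatitis B virus protein), Src(p53-) fish Src (a tyrosine kinase oncogene) and HBx,Src(p53-) fish both, expressed under the liver promoter of fabp10a on a p53 mutant background. No group had the p53 mutation without a transgene, so the mutation and the transgenes cannot be told apart in comparisons with WT. WT, HBx(p53-) and Src(p53-) had 2 NOR, 1 DIO and 1 FAT library each, whereas HBx,Src(p53-) had 2 NOR and 2 DIO libraries and none on FAT. DIO and FAT were joined as the obesity diet, as in the study, so the obesity diet of HBx,Src(p53-) was DIO alone. The sequenced fish numbered 16, as did the libraries, and their sex was not given in the sources used here. With 1 or 2 libraries of a genotype on a diet, p-values measure only the spread between these livers. Where DIO and FAT were joined, that spread also holds the difference between those diets.

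Summed FPKM ranged from 812158 to 1218152 per library, with 20348 to 23009 genes above 0. The hepatocyte transcript fabp10a was abundant in all 16 libraries, at 958 to 3312 FPKM. The level of src was above that of every library without the transgene (0 to 4.24 FPKM) in 7 of 8 carrier libraries. It was 14.2 to 20.3 FPKM in carriers on NOR, but 3.47 and 4.34 FPKM in the HBx,Src(p53-) DIO libraries and 4.90 FPKM in Src(p53-) on FAT, and whether transgene reads were counted under src was not given. The summed level of 9 ovary and egg markers in HBx,Src(p53-) was 29.6 and 1.86 FPKM on NOR and 14.5 and 5.75 FPKM on DIO. It was 0.163 to 1.74 FPKM in the other 12 libraries, so NOR library 2 lay just above them. By gene not all 9 set this genotype apart. In HBx,Src(p53-) DIO library 2, gdf9, ddx4 and tdgf1 were at 0 FPKM, and h1m was at 0 in all 16 libraries. In Src(p53-) NOR library 1, tdgf1 was 1.47 FPKM.

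The large subunit GTPase gtpbp4 had a mean of 527 FPKM, a level reached by only 224 of the tested genes. It was followed by dkc1 (195 FPKM) and nop56 (163 FPKM), which overlapped in most libraries, and by fbl (69.7 FPKM). The next 4, emg1 (23.8 FPKM), aatf (18.2 FPKM), heatr1 (17.8 FPKM) and nopchap1 (16.7 FPKM), had overlapping ranges and no clear order. The nucleolar GTPases gnl3l (9.18 FPKM) and gnl2 (7.99 FPKM) were the lowest. Between libraries gtpbp4 varied least, with a highest value 3.52 times its lowest, and dkc1 varied most, with a ratio of 31.5.

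**Figure D1:**
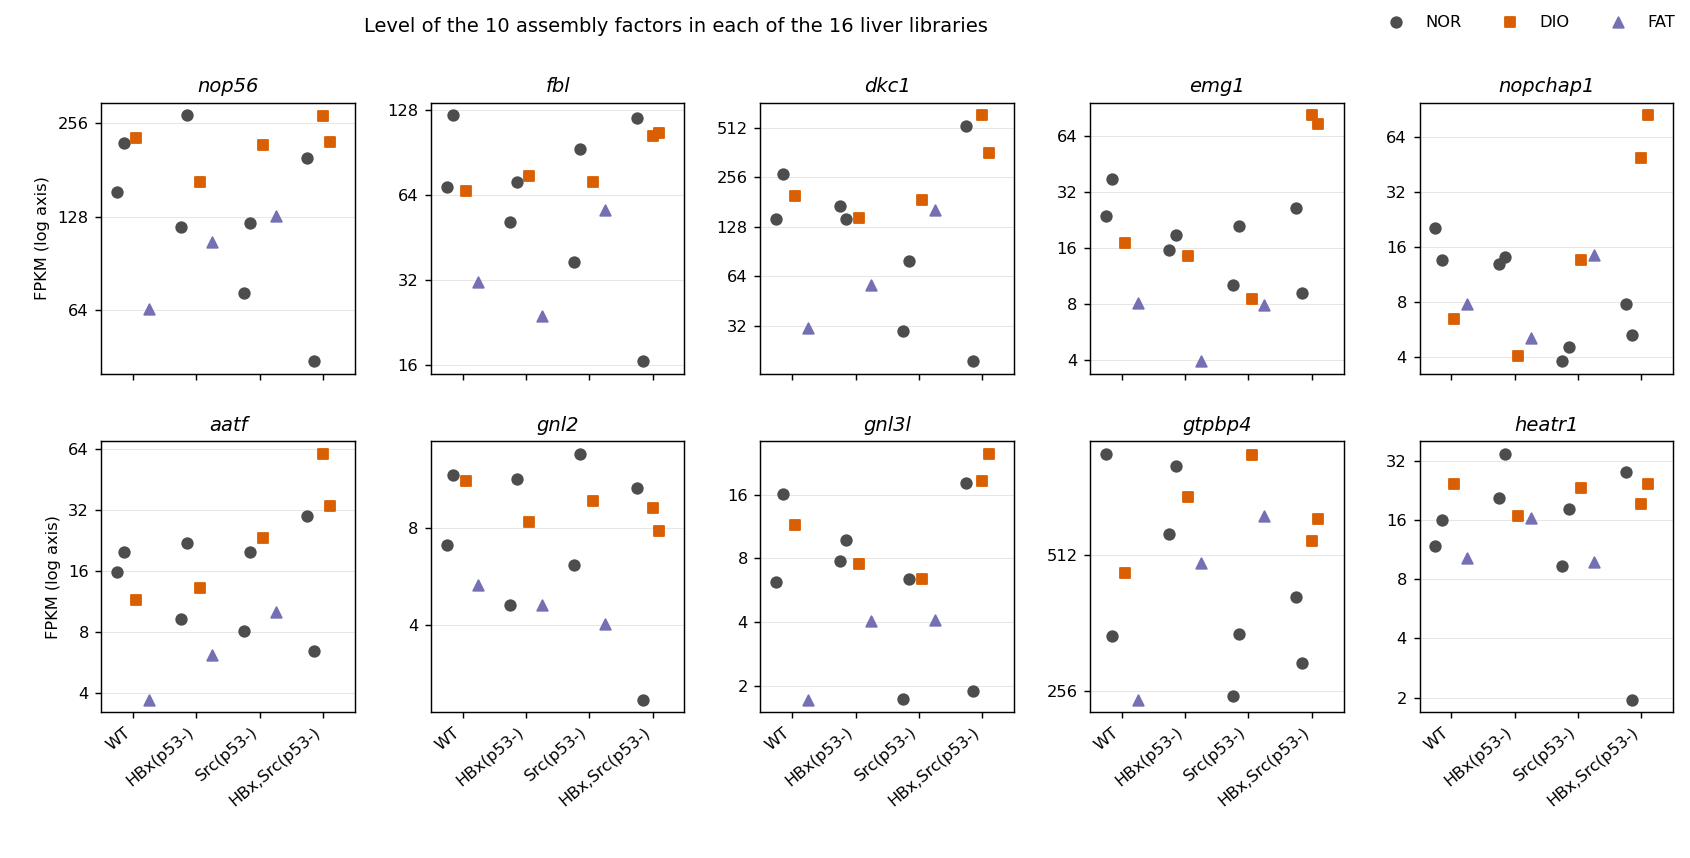
Level of each gene (FPKM, log axis) in each liver library, by genotype, with NOR as circles, DIO as squares and FAT as triangles; each point is 1 library. The HBx,Src(p53-) NOR libraries lie far apart for most genes (dkc1 at 525 and 19.4 FPKM), and in nopchap1 alone the replicates lie close while the groups lie apart.

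Of the box C/D proteins, nop56 encodes a core scaffold of the particle. Its level in WT was 153 and 221 FPKM on NOR, 229 FPKM on DIO and 64.4 FPKM on FAT. In HBx(p53-) it was 119 and 272 FPKM on NOR, 166 FPKM on DIO and 106 FPKM on FAT. Thus in both genotypes FAT was the lowest library while DIO stayed within or just above the NOR pair. In Src(p53-) the NOR libraries had 72.5 and 122 FPKM, below DIO (218 FPKM) and FAT (129 FPKM). In HBx,Src(p53-) nop56 was 197 and 43.7 FPKM on NOR, against 269.9 and 223 FPKM on DIO. The catalytic methyltransferase fbl (fibrillarin) ranged from 16.5 FPKM in HBx,Src(p53-) NOR library 2 to 123 FPKM in WT NOR library 2, and its DIO and NOR values overlapped in HBx,Src(p53-) (104 and 106 against 120.3 and 16.5 FPKM).

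The remaining box C/D gene, nopchap1, encodes a cofactor known from human cells, which brings the core protein NOP58 to the chaperones that build the particle. On a log2 scale its spread between libraries of the same genotype and diet was the smallest of the members. In WT nopchap1 was 20.3 and 13.7 FPKM on NOR and 6.49 and 7.85 FPKM on DIO and FAT. In HBx(p53-) it was 12.9 and 14.0 FPKM on NOR against 4.07 and 5.08 FPKM. In both genotypes the obesity libraries lay below both NOR libraries. In Src(p53-) the order was the opposite, with 3.78 and 4.52 FPKM on NOR and 13.5 and 14.4 FPKM on DIO and FAT. In HBx,Src(p53-) it was 7.83 and 5.26 FPKM on NOR and 49.5 and 84.6 FPKM on DIO, the highest levels of the series. DIO and FAT gave nearly the same level in each of the 3 genotypes that had both.

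The box H/ACA pseudouridine synthase dkc1 (dyskerin, which is also a part of telomerase) was the most variable member. In WT it was 142 and 267 FPKM on NOR, 196 FPKM on DIO and 30.7 FPKM on FAT, and in HBx(p53-) 171 and 142 FPKM on NOR, 145 FPKM on DIO and 56.2 FPKM on FAT. Src(p53-) had 29.8 and 79.6 FPKM on NOR, 185 FPKM on DIO and 162 FPKM on FAT. The levels in HBx,Src(p53-) were 525 and 19.4 FPKM on NOR, against 610.2 and 359 FPKM on DIO. The pair of HBx,Src(p53-) NOR libraries therefore spanned nearly the whole range of the gene.

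Among the small subunit factors, emg1 encodes a methyltransferase that modifies a pseudouridine of the 18S rRNA. It was 23.8 and 37.8 FPKM on NOR, 17 FPKM on DIO and 8.07 FPKM on FAT in WT. It was 15.7 and 18.9 FPKM on NOR, 14.5 FPKM on DIO and 3.92 FPKM on FAT in HBx(p53-), and 10.1 and 20.9 FPKM on NOR, 8.53 FPKM on DIO and 7.86 FPKM on FAT in Src(p53-). The obesity libraries were below both NOR libraries in these 3 genotypes. In HBx,Src(p53-), by contrast, emg1 was 26.2 and 9.18 FPKM on NOR and 83.0 and 74.8 FPKM on DIO. The processome protein aatf, also known as an antagonist of apoptosis, ranged from 3.69 FPKM in WT on FAT to 60.5 FPKM in an HBx,Src(p53-) DIO library. In WT aatf was 15.7 and 19.8 FPKM on NOR and 11.4 FPKM on DIO, and in HBx,Src(p53-) 29.8 and 6.39 FPKM on NOR and 33.3 FPKM in the other DIO library. The scaffold heatr1, the counterpart of yeast Utp10, ranged from 1.95 FPKM in HBx,Src(p53-) NOR library 2 to 34.7 FPKM in HBx(p53-) NOR library 2.

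Of the large subunit GTPases, gtpbp4 (yeast Nog1) was 861 and 339 FPKM on NOR, 467 FPKM on DIO and 245 FPKM on FAT in WT, and 572 and 809 FPKM on NOR, 689 FPKM on DIO and 492 FPKM on FAT in HBx(p53-). In Src(p53-) it was 250.0 and 343 FPKM on NOR, 857 FPKM on DIO and 626 FPKM on FAT, and in HBx,Src(p53-) 414 and 295 FPKM on NOR and 550.3 and 617 FPKM on DIO. In both Src genotypes the obesity libraries thus lay above the NOR pair, whereas in the others they overlapped it or lay below. The levels of gnl2 (yeast Nog2) ran from 2.35 to 13.6 FPKM and those of gnl3l, a relative of nucleostemin, from 1.72 to 24.9 FPKM. The lowest gnl2 level was in HBx,Src(p53-) NOR library 2 and the lowest gnl3l level in WT on FAT. For gnl3l the HBx,Src(p53-) libraries had 18.2 and 1.9 FPKM on NOR and 18.5 and 24.9 FPKM on DIO, so that the groups were separated by a narrow margin.

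The first comparison asked what the obesity diet did in each genotype. Fold changes are differences of log2(FPKM + 1), which understate the change of low genes, and were tested with limma in 1 fit of 8 groups with p-values adjusted over all 12319 genes. In WT, 9 of the 10 members were lower on the obesity diet, with a median log2 change of -0.96 against 0.03 over all genes tested. The median rested on the FAT library, without which it was -0.10 and 5 of 10 members were higher, while without the DIO library it was -1.51. The changes ran from -1.31 (SE 1.21) in dkc1 to 0.20 (SE 0.86) in heatr1. None passed an adjusted p of 0.05, nor did any gene of the table (0%), while at an unadjusted p of 0.05 there were 421 genes and, of the members, nopchap1. In 4 members (fbl, emg1, nopchap1 and aatf) both obesity libraries were below both NOR libraries, which held for 10.1% of all genes, and in none were they above (12.9% of all genes).

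In HBx(p53-), all 10 members were lower on the obesity diet, although gtpbp4 turned to 0.04 under quantile normalization. The median log2 change of the members was -0.59 against -0.04 over all genes. Leaving out the FAT library gave -0.11 and leaving out NOR library 2 gave -0.29, with 3 members higher in each case. The lowest value, -1.38 (SE 0.42) in nopchap1, had an adjusted p of 1 and an unadjusted p of 0.00617. None of the members passed the adjusted threshold, which 0.00812% of all genes did. Both obesity libraries were below both NOR libraries in 4 members (emg1, nopchap1, gnl3l and heatr1; 16% of all genes), and none was above (12.9% of all genes).

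In Src(p53-), 8 members were higher on the obesity diet and emg1 and gnl2 were lower, with a median of 0.35 against -0.34 over all genes. The direction depended on 1 library, since without NOR library 1 the median was -0.26 with 4 members higher, and without NOR library 2 it was 1.01 with 9 higher. Without the DIO library the median was 0.06. The median of all genes was -0.03 after quantile normalization, under which that of the members was 0.72 and no member changed sign. The largest changes were 1.81 (SE 1.21) in dkc1, 1.55 (SE 0.42) in nopchap1 and 1.32 (SE 0.48) in gtpbp4, and the smallest adjusted p of the members was 0.446. None passed, against 0.0162% of all genes, and 2 (nopchap1 and gtpbp4) had an unadjusted p under 0.05, as did 10.9% of all genes. Both obesity libraries were above both NOR libraries in nop56, dkc1, nopchap1 and gtpbp4, that is 4 of 10 members against 11% of all genes, and below in 1, emg1, against 35.6%.

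In HBx,Src(p53-), where the obesity diet was DIO alone, all 10 members were higher than on NOR, with a median of 1.49 against -0.10 over all genes. The change of nopchap1, 3.14 (SE 0.42) on the log2 scale, passed the threshold (limma, adjusted p = 0.0173) and was the only member to do so, against 0.17% of all genes. The change of emg1 was 2.26 (SE 0.64) with an adjusted p of 0.154, and that of dkc1 2.18 (SE 1.21) with an adjusted p of 0.408. Both DIO libraries were above both NOR libraries in 6 members (nop56, emg1, nopchap1, aatf, gnl3l and gtpbp4), against 22% of all genes, and below in none (29.6% of all genes). With every library scaled to a common sum of FPKM the 6 became 3, as nop56, aatf and gnl3l no longer separated.

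Library 2 of the HBx,Src(p53-) NOR pair carried much of this difference. It was the lowest library of the series for 5 of the members, and library 1 exceeded it in all 10, by a median of 2.1 on the log2 scale against 0.15 over all genes. Without library 2 the median change of the members was 0.27 and 6 of 10 were higher, whereas without library 1 it was 2.79 and all 10 were higher. The summed level of the ovary markers in the DIO libraries was above that of NOR library 2 and below that of NOR library 1. Over all libraries the log2 of that sum had a Pearson's r of 0.52 with the mean log2 level of the members. The part of the ovary markers in the member levels was not tested. For nopchap1 the NOR libraries differed by 0.49 on the log2 scale, and its change was 2.76 to 3.52 with each HBx,Src(p53-) library left out in turn. It lost the threshold without NOR library 2 (2.90, adjusted p = 0.0685), DIO library 1 (3.52, adjusted p = 0.0708) and DIO library 2 (2.76, adjusted p = 0.222).

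**Figure D2:**
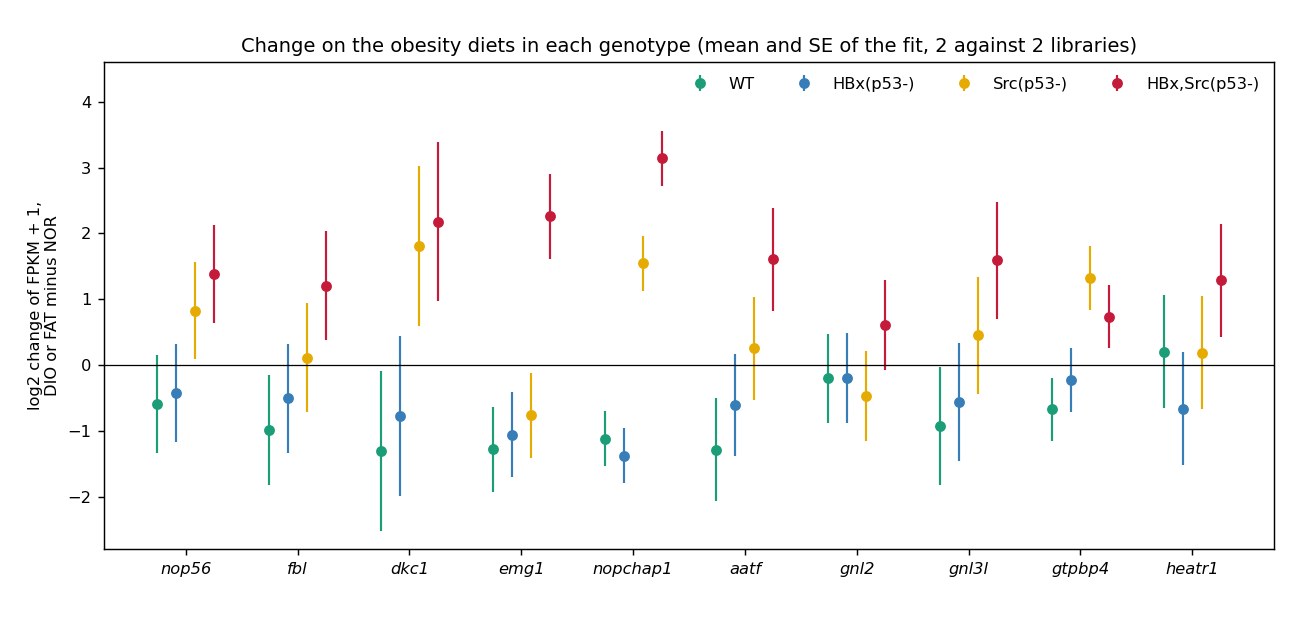
Log2 change of FPKM + 1 on the obesity diet against NOR for each gene and genotype, with the SE of the limma fit; each point compares 2 with 2 libraries. HBx,Src(p53-) lies above 0 in all 10 genes and HBx(p53-) below it, with the widest separation in nopchap1 (3.14 against -1.38).

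Whether carriers of Src responded to the diet otherwise than fish without it was tested as the difference of their mean diet effects. The difference was above 0 in 10 of 10 members, with a median of 1.69 against -0.23 over all genes, and the median was 1.22 to 2.21 with each library left out in turn. As HBx,Src(p53-) had no FAT library, the obesity libraries of carriers held more DIO and less FAT than those of non-carriers. The difference is therefore in part one between DIO and FAT, and that part was not tested. Without the WT FAT library the median was 1.23. For nopchap1 it was 3.59 (SE 0.42; limma, adjusted p = 0.0167), the smallest p of all 12319 genes, and 0.0406% of all genes passed. The next largest were dkc1 with 3.04 (SE 1.21, adjusted p = 0.277), emg1 with 1.92 (SE 0.64, adjusted p = 0.216), aatf with 1.88 (SE 0.78, adjusted p = 0.289), gnl3l with 1.77 (SE 0.89, adjusted p = 0.372) and nop56 with 1.62 (SE 0.74, adjusted p = 0.331). These and the other 4 members did not pass, although 6 of the 10, nopchap1 included, had an unadjusted p under 0.05, as did 1849 genes of the table. Without HBx,Src(p53-) NOR library 1, dkc1 also passed (4.21, adjusted p = 0.0475), in a fit in which 0.828% of all genes passed. The nopchap1 difference lay between 3.40 and 3.78 with each of the 16 libraries left out in turn and passed in 7 of the 16 fits. It ended between an adjusted p of 0.0510 and 0.0938 without WT NOR 1 (3.46), HBx(p53-) NOR 1 (3.62), DIO (3.53) or FAT (3.66), Src(p53-) NOR 1 (3.54), NOR 2 (3.65) or FAT (3.57), or HBx,Src(p53-) NOR 2 (3.47) or DIO 2 (3.40).

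Genotypes were then compared within a diet. On NOR the members of HBx(p53-) had a median log2 difference from WT of -0.28 against -0.07 over all genes, 8 lower and 2 higher. The differences ran from -0.77 (SE 0.64) in emg1 to 0.91 (SE 0.86) in heatr1. None passed the threshold or an unadjusted p of 0.05 (0.0812% and 6.62% of all genes did). Without HBx(p53-) NOR library 1 the median was 0.12 and 5 members were higher. In Src(p53-) on NOR, 9 members were below WT, with a median of -0.92 against 0.26 over all genes. Without Src(p53-) NOR library 1 the median was -0.55 and 4 members were higher. With all libraries the 1 member above WT was gnl2 (0.01), which turned negative after quantile normalization or scaling to a common sum. The lowest values were -1.97 (SE 1.21) in dkc1 and -1.78 (SE 0.42, limma, adjusted p = 0.152) in nopchap1, and none passed, against 0.13% of all genes. In HBx,Src(p53-) on NOR all 10 were below WT, with a median of -0.80 against 0.30 over all genes, and none passed, against 0.195%. This difference again rested on NOR library 2, without which the median was 0.30 and 7 members were higher. In each of these Src comparisons nopchap1 was the only member with an unadjusted p under 0.05. So were 9.38% of all genes for Src(p53-) and 10.6% for HBx,Src(p53-), so 1 of 10 members was near that share.

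Taking both Src genotypes together, all 10 members were lower in carriers than in non-carriers on NOR (median -0.83 against 0.33 over all genes) and all 10 were higher on the obesity diet (median 0.90 against 0.09). Without HBx,Src(p53-) NOR library 2 the median on NOR was -0.14 and 4 members were higher, and without WT FAT the median on the obesity diet was 0.49 and 8 were higher. Here too the obesity libraries of carriers held more DIO and less FAT than those of non-carriers. On the obesity diet gnl2 (0.07) turned below 0 after quantile normalization, as did gnl2 and heatr1 after scaling to a common sum. The nopchap1 level of carriers was lower on NOR by -1.37 (SE 0.30; limma, adjusted p = 0.0876), and no member passed on NOR, against 0.0893% of all genes. Without WT NOR library 2 it passed (-1.51, adjusted p = 0.0368), in a fit in which 3.3% of all genes passed. On the obesity diet it was higher by 2.22 (SE 0.30; limma, adjusted p = 0.0162), and it was the 1 member called, against 0.106% of all genes. That call was lost without HBx(p53-) DIO (2.16, adjusted p = 0.0937), Src(p53-) FAT (2.2, adjusted p = 0.0705) or HBx,Src(p53-) DIO library 2 (2.03, adjusted p = 0.0963). The obesity libraries with the highest nopchap1, both HBx,Src(p53-) on DIO, had src levels of 3.47 and 4.34 FPKM, where non-carriers reached 4.24 FPKM.

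Immune cell markers were compared in the same way. All 8 tested were higher in carriers on NOR (median log2 difference 1.11) and on the obesity diet (0.87), but none passed the threshold, with a smallest limma adjusted p of 0.152 and 0.125. Their summed level over 12 markers was 62.6 to 117 FPKM in the 8 carrier libraries and 13.9 to 66.1 FPKM in the 8 others. Over all libraries its log2 had a Pearson's r of 0.23 with the mean log2 level of the members. The part of the immune markers in the member levels was not tested. In a piece of liver, fewer cells of a type and less RNA per cell cannot be told apart.

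Across genotypes the diet had no common direction. In a model of genotype and diet, 6 members were higher and 4 lower on the obesity diet, with a median of 0.20 against -0.10 over all genes and of -0.19 without HBx,Src(p53-) NOR library 2. No member and no gene of the table (0%) passed the adjusted threshold in limma, and none of the members had an unadjusted p under 0.05, against 795 genes. The signs of fbl, aatf and gnl2, all between -0.07 and -0.01, depended on the scaling or the pseudocount.

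The obesity diets were also compared with each other. In WT, HBx(p53-) and Src(p53-), each with 1 library on DIO and 1 on FAT, 9 of the 10 members were lower on FAT than on DIO in all 3 genotypes, against 13.2% of all genes. The exception was nopchap1, which was higher on FAT by 0.24, 0.26 and 0.09 on the log2 scale. The member medians were -1.11 in WT, -0.74 in HBx(p53-) and -0.50 in Src(p53-), where all genes had medians of 0.27, -0.27 and 0.06. The widest gap was in dkc1 in WT, at -2.64, and the narrowest of the 9 genes was in heatr1 in HBx(p53-), at -0.03. Averaged over the 3 genotypes, 1 member was higher on FAT after quantile normalization (member median -0.97) and after scaling to a common sum (-0.90). By genotype, however, scaling to a common sum put dkc1 and emg1 in Src(p53-) and heatr1 in HBx(p53-) higher on FAT than on DIO. Markers of the exocrine pancreas went the other way, with 9 of 10 tested higher on FAT and a median of 0.95, none past the threshold. The summed level of 13 such markers was 6.65 FPKM on DIO and 29.2 FPKM on FAT in WT, 94.7 and 330.4 FPKM in HBx(p53-), and 58.2 and 91.4 FPKM in Src(p53-). Over the 16 libraries the log2 summed level of these markers had a Pearson's r of -0.02 with the mean log2 level of the members. It was highest in HBx,Src(p53-) DIO library 1 (447 FPKM). The part of the pancreas markers in the member levels was not tested.

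In limma the FAT minus DIO difference over the 3 genotypes had a member median of -0.96 against 0.02 over all genes. It was -1.39 (SE 0.76) in dkc1, -1.18 (SE 0.50) in aatf, -1.17 (SE 0.56) in gnl3l and -1.07 (SE 0.48) in nop56. None passed the adjusted threshold (smallest adjusted p 0.845), nor did any gene of the table (0%). At an unadjusted p of 0.05 there were 686 genes and 2 members, nop56 and aatf. The median stayed between -1.35 and -0.70 with each DIO or FAT library left out in turn. Against NOR, the WT FAT library was below both NOR libraries in all 10 members, whereas WT on DIO was below in 4 and above in 2. HBx(p53-) on FAT was below both in 9, and on DIO below in 4 and above in 1. Src(p53-) on FAT was below both NOR libraries in 2 members and above in 4, and on DIO below in 1 and above in 7. Shares of all genes were not taken for these counts of 1 library against a pair, so they have no background beside them.

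**Figure D3:**
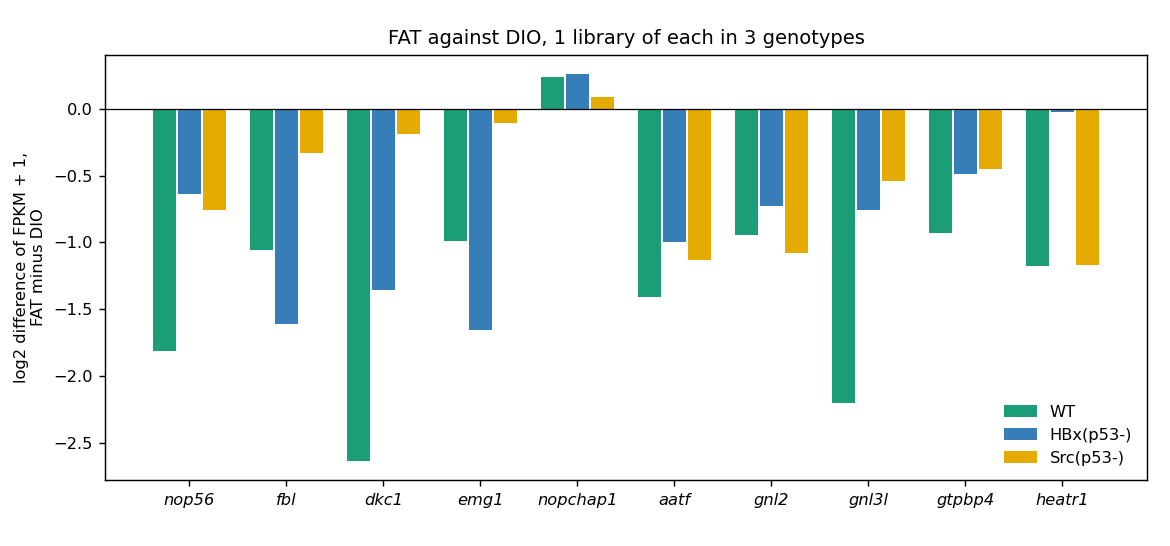
Log2 difference of FPKM + 1 between the FAT and the DIO library in WT, HBx(p53-) and Src(p53-); each bar is 1 library against 1, so there is no error bar. Bars lie below 0 in all 3 genotypes for every gene but nopchap1, and they reach -2.64 for dkc1 in WT.

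Much of the variation lay between livers of the same group. The SD within the 8 groups had a median of 0.85 on the log2 scale over the members, against 0.59 over all genes tested. In 3 of the 8 groups the pair was 1 DIO and 1 FAT library, so this spread includes the difference between those diets. Over the 5 pairs of the same genotype and diet alone, a choice made after seeing the data, the median SD was 0.86 over the members and 0.58 over all genes. Within the 8 groups the SD was 1.46 in dkc1 and 0.98 in heatr1. The share of the variation that lay within these groups was 82.7% in gnl2, 71.1% in heatr1 and 69.6% in fbl. For emg1 that share was 19.3%. For nopchap1 the within-group SD was 0.29 and the share 3.15%, the lowest of the members on both measures. Its SD was 0.15 over the 3 pairs of DIO with FAT and 0.34 over the 5 pairs of the same diet. The SE of its tests in the fit of 8 groups rests on both kinds of pair.

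The members varied together from library to library. Pearson's r of log2(FPKM + 1) over the 16 libraries was above 0 in all 45 pairs, with a median of 0.67, and the median Spearman's rho was 0.61. Over all pairs of tested genes the median r was 0.10, and 2.79% of those pairs had an r of at least the member median. By permutation test with 100000 resamples and adjustment over the 45 pairs, 34 pairs passed an adjusted p of 0.05 with r and 27 with rho. The libraries were permuted across the 8 groups, so group differences that members share can make a pair pass. The share of all gene pairs passing was not computed. The closest pair was dkc1 and gnl3l, with r = 0.93, rho = 0.90 and an adjusted permutation p of 0.000225, and r = 0.89 without the 2 libraries farthest from the median. Without those 2 libraries the median r of all pairs was 0.58.

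The same was measured within groups. On residuals from the 8 group means the median r of the 45 pairs was 0.85, against 0.11 over all pairs of tested genes. The highest was 0.97 between aatf and gnl2. These residuals come from 8 pairs of libraries, 3 of them DIO with FAT, and the HBx,Src(p53-) NOR pair weighs heavily in them. Over the 16 libraries the median r was 0.62 without its library 2, but the within-group r was not computed without this pair. Genes measured in the same libraries also share depth and cell makeup. A pair of members stood aside. The 9 pairs with nopchap1 had a median r of 0.54 over the libraries but 0.08 within groups, and the 9 pairs with gtpbp4 had medians of 0.45 and 0.41. The 28 pairs of the other 8 genes had medians of 0.79 over the libraries and 0.88 within groups, with a lowest within-group r of 0.70.

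**Figure D4:**
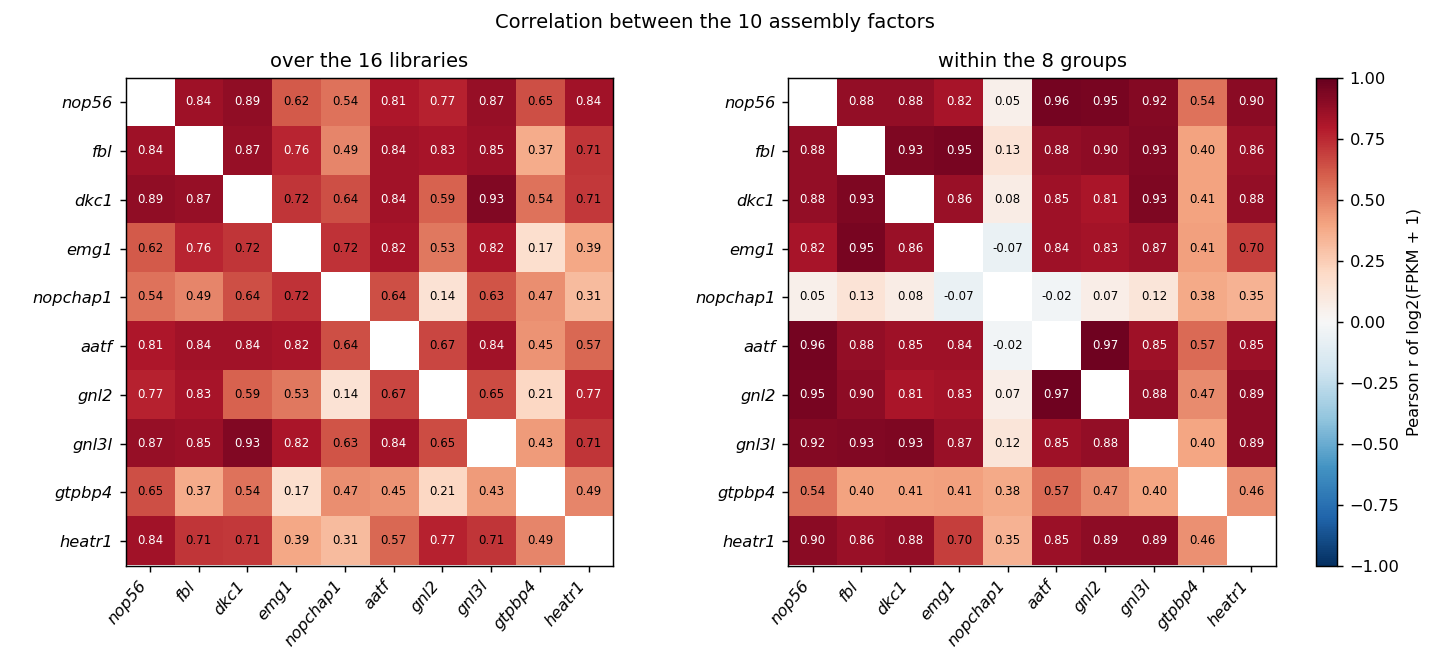
Pearson's r of log2(FPKM + 1) for each pair of genes over the 16 libraries (left) and on residuals from the 8 group means (right), with the value printed in each cell. Within groups the rows of nopchap1 (median 0.08) and gtpbp4 (median 0.41) are paler than the other 8 (median 0.88).

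Ranked by the mean log2 level of the 10 members, HBx,Src(p53-) DIO libraries 1 and 2 were highest (6.31 and 6.26). HBx,Src(p53-) NOR library 2 was lowest (3.59), followed by WT on FAT (4.01), Src(p53-) NOR library 1 (4.09) and HBx(p53-) on FAT (4.28). In each of these 4 libraries none of the members was above its own median. The other HBx,Src(p53-) NOR library followed the DIO libraries, at 5.78, with 8 members above their median.

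The genes whose pattern was most like the mean of the members, among 3202 other named genes averaging 5 FPKM or more, were nmd3, ccdc86, cebpz, ntmt1, noc4l, nop58, prps1a, rpl7l1, slc35f2 and nifk. Their r over the 16 libraries ran from 0.97 in nmd3 to 0.94 in nifk. Of the 10, 5 were on the lists of other ribosome assembly genes, which held 58 of the 3202. For the 80 other assembly genes that were tested, the median r with the mean of the members was 0.81, against 0.05 for all tested genes, and r was above 0 in 77.

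Those 80 genes (box C/D and H/ACA partners, small subunit processome, large subunit assembly) were described in the same way, and none passed the threshold in any comparison with limma. On FAT against DIO, 78 were lower, with a median of -0.70. On the obesity diet 64 were lower in WT (median -0.40), 73 lower in HBx(p53-) (-0.39), 44 higher in Src(p53-) (0.02) and 73 higher in HBx,Src(p53-) (1.11). In the difference between carriers and non-carriers of Src 70 were above 0, with a median of 0.93. The widest differences there were in utp3 (3.72, processome) and ppan (3.76, large subunit), and the lowest in bop1 (-0.66) and senp3b (-1.61). Of the box C/D partners nop58 had the highest (2.11) and snu13a the lowest (-0.40), and of the H/ACA partners nhp2 the highest (2.19) and shq1 the lowest (0.41).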

How the data were processed

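Liver libraries were aligned by the authors with HISAT2 2.1.0 to GRCz10, assembled with StringTie 1.3.4d (SAMtools 1.7, FastQC 0.11.5) and summarised in R 3.5.3 with Ballgown, per the submitters' processing notes and methods. The deposited values were FPKM, normalised by the authors to transcript length and mapped fragments, and as no counts came with them the depth of a gene's value is unknown. Strand was not given in the sources used here, so reads of overlapping or antisense genes cannot be told apart. The most common ratio of low values between libraries gave relative depths of 0.774 to 1.04.

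Of 35885 rows, 11972 had a symbol, 11763 of them through the RefSeq transcript name, and 30 were summed into another row. Values were analysed as log2(FPKM + 1) for genes averaging 1 FPKM or more, with limma 3.58.1 (trended eBayes, Benjamini-Hochberg, R 4.3.3), in a fit tested on simulated data. Python 3 with numpy, pandas, scipy and matplotlib gave levels, correlations (permutation tests, 100000 resamples) and figures. Alternatives were pseudocounts of 0.1 and 5, no filter, a minimum mean of 5 FPKM, quantile normalization, a common sum of FPKM, eBayes without trend, a replicate block and each library left out.

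The members and lists were chosen with earlier results of these data known. All 10 members were named, and from the other assembly lists the highest and lowest gene in the Src carrier difference, genes past the threshold, and the 10 most alike in pattern.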

Additional observations from a re-analysis of the deposited data

Results flagged for a closer look

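The diet effect of nopchap1 differed between Src carriers and non-carriers by 3.59 on the log2(FPKM + 1) scale (limma, adjusted p = 0.0167), being negative in WT (-1.12) and HBx(p53-) (-1.38) and positive in Src(p53-) (1.55) and HBx,Src(p53-) (3.14). In emg1, aatf and gnl3l, both obesity libraries lay below both NOR libraries in at least 1 genotype and above both in HBx,Src(p53-). With nopchap1, 4 of the 10 members did so, against 12% of all tested genes. As the members were chosen with earlier results of these data known, that share is no independent background. These differences between 2 genotypes were not tested by themselves. The diet effect of emg1 was higher in HBx,Src(p53-) than in WT by 3.54, than in HBx(p53-) by 3.32 and than in Src(p53-) by 3.02. That of aatf was higher in HBx,Src(p53-) than in WT by 2.89, and that of gnl3l was higher in HBx,Src(p53-) than in HBx(p53-) by 2.16. The HBx,Src(p53-) libraries of gnl3l were separated only by 18.5 against 18.2 FPKM. With every library scaled to a common sum of FPKM, aatf and gnl3l were no longer separated in HBx,Src(p53-), whereas emg1 and nopchap1 were. The separation below NOR in WT together with that above it in HBx,Src(p53-) held for 2.76% of all genes, with HBx(p53-) in place of WT for 5.37%, and with Src(p53-) for 6.55%. No group held enough libraries for a test of single outlying values.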

How the results depend on the processing

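Over the 8 alternatives applied to the whole table, the count of members past the threshold was unchanged in all 12 comparisons that could be fitted. The nopchap1 change was 2.61 to 3.31 in HBx,Src(p53-), 2.72 to 3.90 for carriers minus non-carriers and 1.76 to 2.38 for carriers on the obesity diet, with adjusted p of at most 0.0400. With each library left out in turn, the members past the threshold ranged from 0 to 1 for the diet effect in HBx,Src(p53-) and for Src carriers on NOR and on the obesity diet, and from 0 to 2 for the carrier difference. The nopchap1 change ranged from 2.76 to 3.52, from 3.40 to 3.78 and from 2.03 to 2.41 in the 3 comparisons where it passed. Without the 2 libraries of highest ovary marker sum, an alternative chosen after seeing the data, 0 members passed in these 3 comparisons, and nopchap1 had 3.77 (adjusted p = 0.122), 3.91 (0.0579) and 2.41 (0.0509). This leaves HBx,Src(p53-) 1 NOR library, the low library 2, against 1 DIO library, so it says nothing about the ovary markers. The median r of the 45 pairs stayed between 0.62 and 0.72.

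The replicate block left the nopchap1 calls in place (3.14, adjusted p = 0.0294; 3.59, 0.0400; 2.22, 0.0245). The numbers only name the libraries, since the deviations of same-numbered libraries had r of -0.26 to 0.22 over 10 pairs of groups, 4 of them over 0.1, and no block was possible for FAT minus DIO, which has 1 library of each a genotype. Of 950 signs of members compared, 12 changed.

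Counts over all genes moved more. For the diet effect in HBx,Src(p53-), 21 genes passed, against 6 (pseudocount 0.1), 84 (pseudocount 5), 113 (no filter), 7 (at least 5 FPKM or replicate block) and 37 (quantile). For the carrier difference 5 passed, against 1 (pseudocount 0.1), 8 (pseudocount 5, replicate block or no trend), 12 (no filter) and 11 (common sum). For carriers on the obesity diet 13 passed, with 5 to 54 under the alternatives, for carriers on NOR 11 with 5 to 36, and against WT on NOR 10 for HBx(p53-) with 9 to 66, 16 for Src(p53-) with 9 to 116 and 24 for HBx,Src(p53-) with 10 to 74. For the diet effect 0 passed in WT with 0 to 24, 1 in HBx(p53-) with 0 to 8 and 2 in Src(p53-) with 1 to 26. Without a filter 1 gene passed for FAT minus DIO. Leaving out 1 library moved the counts further, to 0 to 368 for the carrier difference and 1 to 407 for carriers on NOR (both highest without WT NOR 2), 2 to 40 for carriers on the obesity diet and 0 to 63 for the diet effect in HBx,Src(p53-). Against WT on NOR they were 3 to 19 for HBx(p53-), 1 to 90 for Src(p53-) and 3 to 100 for HBx,Src(p53-), and for the diet effect 3 to 9 in WT, 0 to 2 in HBx(p53-) and 0 to 5 in Src(p53-).

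In WT, HBx(p53-) and Src(p53-) the FAT and the DIO value have no replicate, and a liver that stands apart cannot be told from its group.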

Other observations

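Genes upstream of the assembly factors were followed in lists of the same kind. The 7 tested RNA polymerase I genes were lower on FAT than on DIO in all 7 cases (median log2 change -0.67), and 6 of 7 were higher on the obesity diet in HBx,Src(p53-) (median 1.16). Their summed level was lowest in HBx,Src(p53-) NOR library 2 (10.7 FPKM) and highest in HBx,Src(p53-) DIO library 1 (64.2 FPKM), as was that of the small subunit processome genes (535 and 1695 FPKM). None of the 7 passed the adjusted threshold in any comparison.

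The log2 summed level of 18 genes of DNA replication and mitosis had r = 0.43 with the mean of the members over the 16 libraries. In the diet effect of HBx,Src(p53-) most of those tested did not follow the assembly factors. In HBx,Src(p53-) on the obesity diet 9 of 13 tested proliferation genes were lower (median -0.88), while all 13 were higher in HBx,Src(p53-) than in WT on NOR (median 1.7). Of these tyms, which makes thymidylate for DNA synthesis, passed the threshold (2.68, SE 0.44, limma, adjusted p = 0.0348), as did 0.195% of all genes. Their summed level was 310 FPKM in HBx,Src(p53-) NOR library 1, 106 FPKM in NOR library 2, and 165 and 186 FPKM on DIO, against 30.1 to 72.6 FPKM in the other 12 libraries. The summed level of the ovary and egg markers was also highest in NOR library 1 and lowest in NOR library 2 of this genotype (29.6, 1.86, 14.5 and 5.75 FPKM). The same held for the cyclin gene ccnb1, chosen after its values were seen, with 52.2, 1.77, 16.3 and 13.8 FPKM. The part of the ovary markers in the proliferation levels was not tested. Thus NOR library 2 of this genotype, the lowest for 5 of the assembly factors, had a higher proliferation sum than any library of the other genotypes. By gene this held for pcna, rrm1, tyms, cdk2, mcm2, mcm3, mcm4, mcm5 and mcm6. It did not hold for ccnb1, ccna2, ccne1, cdk1, mcm7, mki67, top2a, aurkb and plk1, which were each higher in some library of another genotype.

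Among the growth regulators mycb, a zebrafish copy of the MYC gene that was chosen after its values were seen, was 192 and 52.5 FPKM in HBx,Src(p53-) on NOR and 2.91 and 83.6 FPKM on DIO. The 10 assembly factors had nearly the same mean log2 level in these DIO libraries, 6.31 and 6.26. Over the 16 libraries the log2 summed level of the 9 growth regulators had r = 0.80 with the mean of the members. The highest mean among the 9 was that of eif4ebp1 (83.5 FPKM), ahead of mycb (37.6 FPKM). The sum therefore does not stand for mycb, and r was not taken for single regulators. The part of mycb or of the other regulators in the member levels was not tested.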
